A study of Sus scrofa with 4 samples.

Results

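The 4 genes described here, GDF9, BMP15, MOS and ZAR1L, encode factors that are known mainly from the oocyte, and they were followed in porcine (Sus scrofa) blastocysts. Every probe that the annotation of the array platform assigns to 1 of these symbols was taken, which gave 4 of the 11909 genes with a named probe and 5 of the 43794 probes on the array: 1 each for GDF9, BMP15 and MOS and 2 for ZAR1L. One group of blastocysts derived from oocytes that had matured, inside their layer of cumulus cells, beside cultured porcine luteal cells (coculture), and the other from oocytes of the control maturation. Luteal cells form the corpus luteum and secrete progesterone. Each of the 4 two-colour arrays held 1 coculture pool and 1 control pool. The coculture RNA was in Cy5 on the arrays of replicates 1 and 2 and in Cy3 on those of replicates 3 and 4, with the control RNA in the other dye. Per the labels, blastocysts were pooled by 10 and collected on days 7 and 8. The labels give 4 pools in the design and call the arrays biological replicates. They do not say how pools relate to conditions, days, donors or cultures. That the 4 values of a condition come from separate pools is therefore an assumption. The p-values below measure only the spread between these pools, within a dye assignment.

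GDF9 and BMP15 are secreted ligands of the transforming growth factor beta family. The oocyte releases them, and they act on granulosa and cumulus cells through the type II receptor BMPR2 with the type I receptors TGFBR1 (for GDF9) and BMPR1B (for BMP15). MOS is a serine/threonine kinase that switches on the MAP kinase cascade through MAP2K1 during oocyte maturation and, in vertebrate eggs, holds the cell in metaphase of the second meiotic division until fertilisation. ZAR1L is the paralogue of ZAR1, a zinc finger protein that binds RNA and, in the mouse, helps to store maternal transcripts in the oocyte. Many maternal transcripts of this kind are cleared in the early embryo, before the blastocyst forms.

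Each channel had its own detection limit, set at 2 SD over the mean of the median pixel intensities of its 153 negative-control spots, which are spots with no matching target. The limits lay between 699 and 978 intensity units in the 4 Cy5 channels and between 702 and 935 in the 4 Cy3 channels. In Cy3, 29.9% to 34.9% of the probes exceeded the limit, and in Cy5 23.6% to 29.3%. Across the 15552 tested probes with a value on all 4 arrays, ratios of coculture over control correlated with r = 0.21 and 0.16 between arrays of the same dye assignment and with r = -0.19 to -0.027 between arrays of opposite assignment. The markers of blastocyst lineages gave the clearest signal of the lists examined: 9 of 15 genes with a probe, among them KRT8, KRT18, GATA3 and POU5F1, exceeded the limit in all 8 channels. By the brightest probe of each gene, 24.2% of all 11909 genes with a probe did so. Other lineage markers were dim: PDGFRA, SALL4 and TFAP2A exceeded the limit in no channel, HNF4A in 1 and SOX2 in 2.

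The factors differed in how they stood against the negative-control spots. GDF9 and MOS were each above the detection limit in 7 of 8 channels. The brighter ZAR1L probe was above it in 3, and BMP15 and the dimmer ZAR1L probe in 0. For comparison, 19.7% of all probes were above the limit in at least 7 channels and 52.1% in none. In all, 17 of the 40 member values exceeded the limit, 8 of 20 in coculture and 9 of 20 in control, against 29.5% of the values of all probes. Signal over the negative-control spots was thus found for GDF9 and MOS in these blastocyst pools, whereas BMP15 was not detectable with this probe, and nor was ZAR1L with the dimmer of its probes. None of the 40 values was marked as ignored, and none was saturated.

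**Figure D1:**
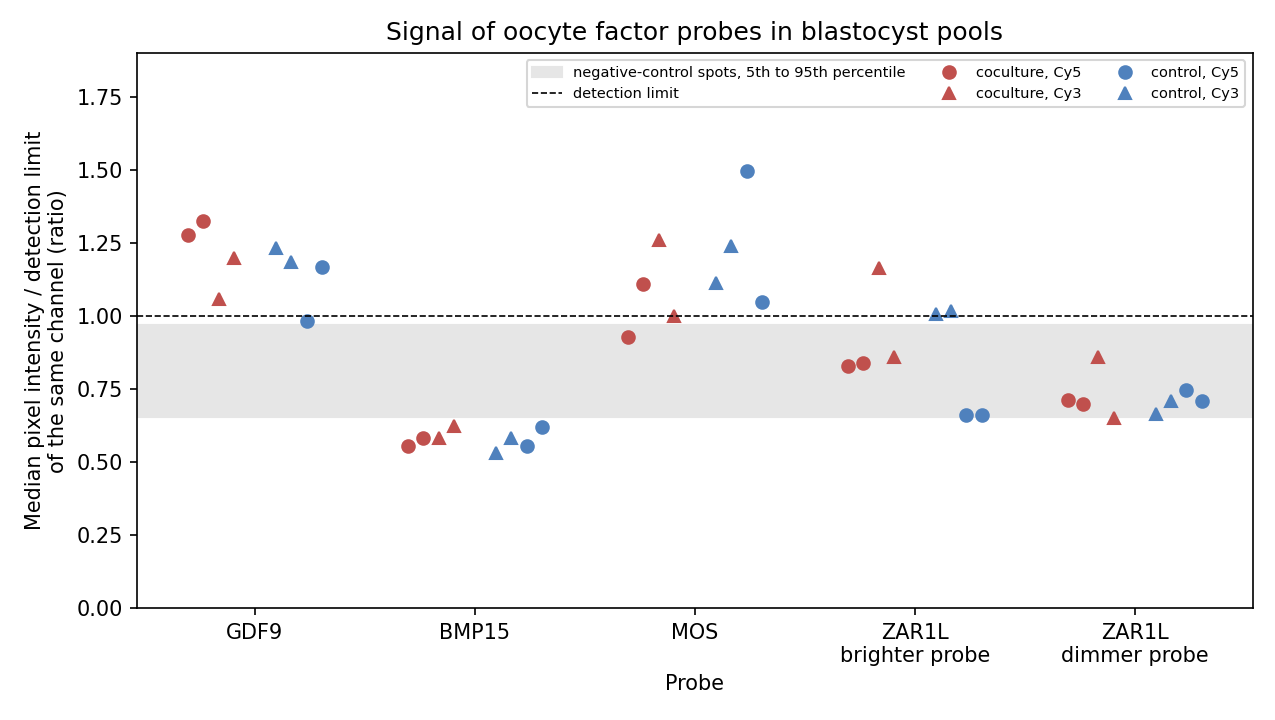
Median pixel intensity divided by the detection limit of the same channel (vertical axis, ratio) for the 5 probes, with coculture pools in red left of control pools in blue, circles for Cy5 and triangles for Cy3, replicates 1 to 4 from left to right within a condition. The dashed line is the detection limit and the grey band spans the lowest 5th to the highest 95th percentile of the negative-control spots over the 8 channels; GDF9 and MOS each lie above the line in 7 of 8 channels, and BMP15 lies below the band.

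GDF9 was above the limit in all 4 coculture pools and in 3 of 4 control pools. Its intensities were 893, 1295, 744 and 1074 in coculture replicates 1 to 4, against 1050, 1107, 936 and 933 in control replicates 1 to 4. The groups overlapped, with means of 1002 ± 238 in coculture and 1006 ± 86.3 in control (SD, n = 4 each). Intensities here and below are not normalized, mix both dyes and leave out the pairing on each array. Their means and overlap therefore do not compare the conditions, and on replicates 1 and 4 their direction differs from that of the ratios below. The value below the limit, control replicate 3, reached 0.983 of it. In the other 7 channels all 153 negative-control spots were dimmer than GDF9. The margin was small throughout: the brightest value was 1.32 times its limit. In pooled blastocysts, fewer cells that hold a transcript and less of it per cell cannot be told apart.

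The log2 ratio of GDF9, coculture over control, was 0.12, 0.65, -0.44 and -0.091 on replicates 1 to 4. Its sign thus followed the dye assignment. Fitted over the 4 arrays with a term for the dye effect, the ratio was 0.059 on the log2 scale (95% interval -0.31 to 0.43), a fold of 1.04 with an interval from 0.806 to 1.35. GDF9 did not pass (limma unadjusted p = 0.72, adjusted p = 0.95). Its fitted sign was not stable: the ratio stood at -0.026 with median centring of the arrays, at -0.073 without replicate 2 and at -0.028 without replicate 4.

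BMP15, the partner ligand of GDF9, gave no signal above the negative-control spots. Its intensities were 387, 570, 409 and 559 in coculture replicates 1 to 4, against 454, 546, 529 and 496 in control replicates 1 to 4. All 8 values lay between 0.533 and 0.623 of the limit, over local backgrounds of 65 to 158. At most 5 of the 153 negative-control spots of a channel were dimmer than BMP15, and in 6 of the 8 channels none was. The probe was therefore not tested, and no fold is given. Its array ratios on the log2 scale were 0.13, 0.14, -0.20 and -0.44 on replicates 1 to 4, which compare signals below the limit in both conditions.

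MOS, the meiotic kinase, was above the limit in 3 of 4 coculture pools and in all 4 control pools. Its intensities were 649, 1085, 885 and 898 in coculture replicates 1 to 4, against 948, 1160, 1425 and 838 in control replicates 1 to 4. The unnormalized intensities of the conditions overlapped, at 879 ± 179 in coculture and 1093 ± 259 in control (SD, n = 4 each). On replicate 4 coculture was the brighter, 898 against 838, although the normalized ratio there lay below 0. Coculture replicate 4 exceeded its limit by less than 1 intensity unit, and coculture replicate 1 stood at 0.929 of it, with 130 of 153 negative-control spots dimmer. The highest value, 1425 in control replicate 3, stood against a limit of 952.

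MOS alone among the 5 probes had 1 sign on all 4 arrays, as had 13.2% of the tested probes, and the other 4 had opposite signs in the dye assignments, as had 20.3% of the tested probes and 23.2% of all probes with a value on every array. Its log2 ratio was -0.28, -0.11, -0.82 and -0.32 on replicates 1 to 4, coculture over control. The fitted ratio was -0.38 (95% interval -0.74 to -0.027), a fold of 0.767 with an interval from 0.599 to 0.982. This did not pass over all probes (limma unadjusted p = 0.038, adjusted p = 0.63). An unadjusted p under 0.05 was reached by 7.84% of the 15631 tested probes, 3.7% with the lower and 4.15% with the higher level in coculture, and an adjusted p under 0.05 by 0 probes, or 0%. The ratio shrank to -0.22 without background correction and to -0.15 with mean in place of median pixel intensities.

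**Figure D2:**
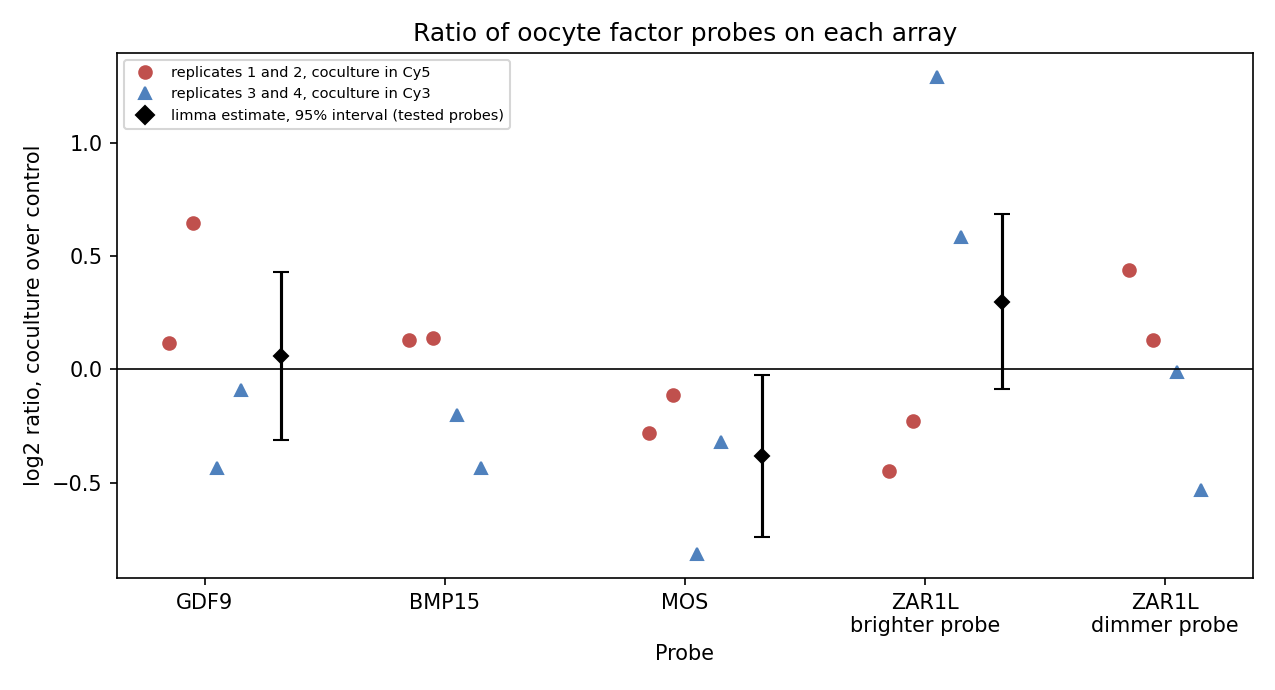
Log2 ratio of coculture over control (vertical axis) for the 5 probes on each array, with circles for replicates 1 and 2 (coculture in Cy5) and triangles for replicates 3 and 4 (coculture in Cy3). Black diamonds with bars are the limma estimate and its 95% interval for the 3 tested probes; MOS lies below 0 on all 4 arrays, and the other probes have opposite signs in the 2 dye assignments.

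The 2 ZAR1L probes differed in detection and in the signs of their ratios. Whether they target the same transcript could not be checked, since probe sequences were not used here. The brighter probe had intensities of 579, 820, 817 and 772 in coculture replicates 1 to 4, against 858, 950, 629 and 530 in control replicates 1 to 4. The unnormalized intensities of the conditions overlapped, at 747 ± 114 in coculture and 742 ± 195 in control (SD, n = 4 each). Its 3 values above the limit were coculture replicate 3, at 1.16 times the limit, and control replicates 1 and 2, at 1.01 and 1.02 times. All 3 came from Cy3 channels, and in Cy5 the probe stayed at 0.661 to 0.838 of the limit. Over the whole array, 13.4% of the probes were above the limit in Cy3 channels only, and 1.41% in Cy5 channels only. The part of the dye in these ZAR1L values was not tested apart from the fit below.

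The log2 ratio of the brighter ZAR1L probe was -0.45, -0.23, 1.29 and 0.58 on replicates 1 to 4. The sign again followed the dye assignment, here in the direction opposite to GDF9. It was tested only through its 2 control values in Cy3, was above the limit in 1 of 4 coculture and 2 of 4 control channels, and had at least 1 channel below the limit on every array, so no fold is given. The fitted log2 ratio was 0.30 (95% interval -0.088 to 0.69) and did not pass (limma unadjusted p = 0.11, adjusted p = 0.69). Without replicate 3 it was 0.12, without replicate 4 it was 0.48, and without background correction 0.13. The dye term of the probe, its mean Cy5 over Cy3 ratio, was -0.64, larger in size than that of 97.8% of the tested probes (limma unadjusted p = 0.0052, adjusted p = 0.32).

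The dimmer ZAR1L probe was above the limit in no channel. Its intensities were 497, 682, 603 and 585 in coculture replicates 1 to 4, against 565, 662, 712 and 566 in control replicates 1 to 4. They lay between 0.652 and 0.858 of the limit, and between 3 and 84 of the 153 negative-control spots of a channel were dimmer. Its log2 ratios were 0.44, 0.13, -0.013 and -0.53 on replicates 1 to 4, with the signs turned round from those of the brighter probe on every array. It was not tested, and no fold is given.

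Most other oocyte and maternal-effect genes with a probe were above the limit in some channels but not in all. Here and for the lists below, a gene is counted by its brightest probe unless other probes are named. Of the 38 genes listed, 23 had a probe named here, and 1 of these, ZP2, was above the limit in all 8 channels, while 14 were above it in some and 8 in none. KPNA7, UCHL1 and DNMT1 were above it in 7 channels each and FIGLA and NPM2 in 6 each. ZP2, ZP3 and ZP4 encode glycoproteins of the zona pellucida, the coat of the oocyte; ZP3 was above the limit in 4 channels and ZP4 in 5. ZAR1, the paralogue of ZAR1L, was above the limit in 1 channel, and NLRP5, a component of the maternal cortical complex, in none by either of its 2 probes. DPPA3 had no probe named here. Among all 11909 genes with a probe, 24.2% were above the limit in all 8 channels and 43.2% in none. The corresponding shares of the oocyte and maternal-effect list were 4.35% and 34.8%.

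No gene of this list passed the comparison of coculture with control: 12 were tested, 0 passed, 3 ratios lay above 0 and 9 below, and 0 had an unadjusted limma p under 0.05 by the brightest probe. Over all 17 tested probes of these genes 0 passed, and 1 had an unadjusted p under 0.05: a dimmer probe of UCHL1, a ubiquitin hydrolase, at -0.50 (limma unadjusted p = 0.026, adjusted p = 0.63), whose 2 other probes stood at -0.16 and -0.0055. KIT and NLRP2 were tested only through control, with 0 and 1 coculture and 2 control channels each above the limit. ZP3 and WEE2 were tested only through coculture, with 3 and 2 coculture and 1 control channels each above it. The ratios of these genes are therefore not free of the filter. The median log2 ratio over the 12 genes was -0.075, against -0.0062 over all tested genes. The highest was KPNA7, a nuclear import factor of the oocyte, at 0.34 (95% interval -0.12 to 0.80), whose other probe stood at -0.016. NLRP2, another maternal NLRP gene, was the lowest by the brightest probe at -0.32 (-0.76 to 0.13). ZP2 stood at -0.0070 (-0.37 to 0.35), ZP3 at -0.067 (-0.51 to 0.38) and ZP4 at -0.28 (-0.72 to 0.16).

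**Figure D3:**
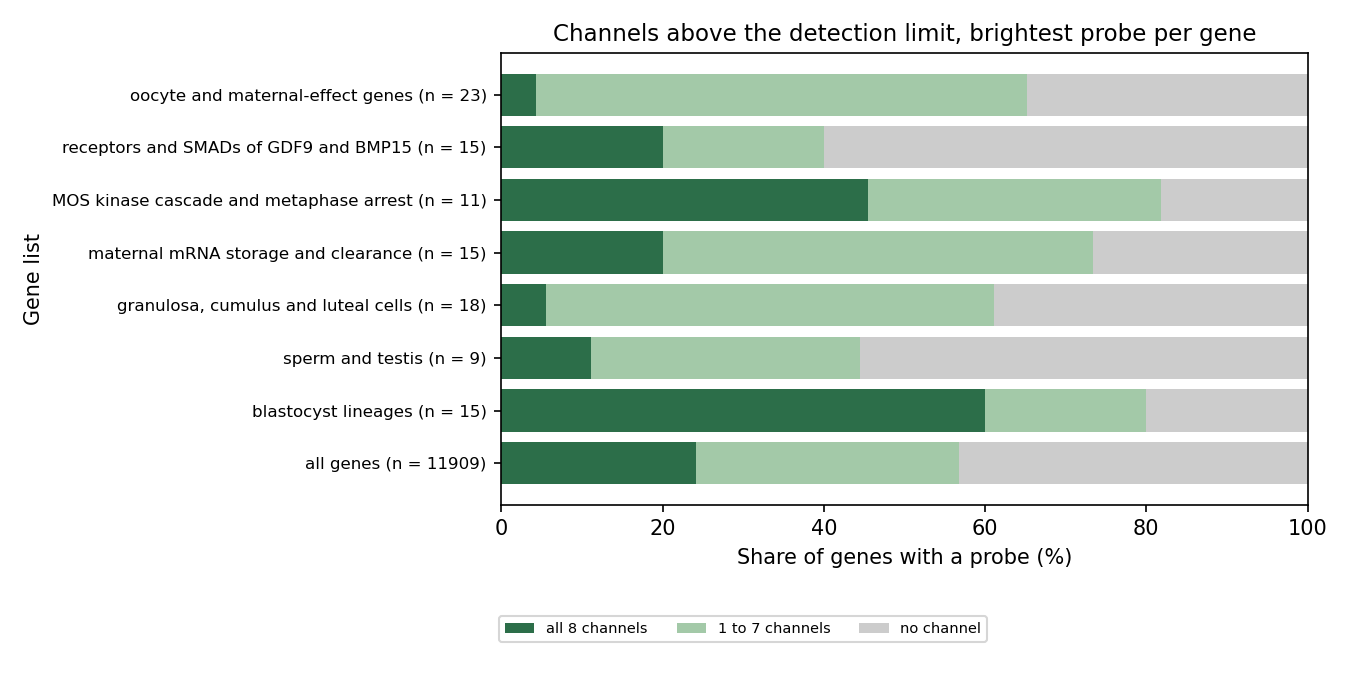
Share of the genes with a probe (horizontal axis, %) that exceeded the detection limit in all 8 channels (dark green), in 1 to 7 channels (light green) or in none (grey), by the brightest probe of each gene. Rows are gene lists with their number of genes, and the lowest row holds all 11909 genes; the blastocyst lineage list has the largest dark share, 60%, and the oocyte and maternal-effect list the smallest, 4.35%.

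The receptors through which GDF9 and BMP15 act gave little signal. BMPR2, BMPR1A, TGFBR1 and ACVR1, all receptor kinases of the family, exceeded the limit in no channel, while BMPR1B exceeded it in 1 coculture and 2 control channels. The signal mediators SMAD1, SMAD2 and SMAD4 were above the limit in all 8 channels, and SMAD3 in none. Of the whole list 60% were above the limit in no channel, against 43.2% of all genes with a probe. Of 15 genes of this list with a probe, 4 were tested and 0 passed. An unadjusted p under 0.05 (limma) was reached by 1 of the 4, against 450 of all 5323 tested genes. The 1 gene was BMPR1B, at 0.45 (95% interval 0.07 to 0.84, adjusted p = 0.63), by 1 of its 3 probes. The other 2 were above the limit in no channel. BMPR1B was tested only through control, so its ratio is not free of the filter. On replicates 1 to 4 the ratio was 0.23, -0.15, 0.57 and 1.17, largest on the arrays with coculture in Cy3. SMAD2 was the lowest of the list at -0.14 (-0.47 to 0.20). The list median was 0.027, with 3 ratios above 0 and 1 below.

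The kinase cascade below MOS was better covered. Of 11 genes with a probe, 5 were above the limit in all 8 channels, or 45.5% against 24.2% of all genes with a probe. Of the 11, 9 were tested, with 0 passing and 0 at an unadjusted limma p under 0.05, as over all 14 tested probes of these genes. MAP2K1, the kinase that MOS activates, stood at -0.090 (95% interval -0.52 to 0.34). By the brightest probe the ratios ran from 0.22 for FBXO5, an inhibitor of the anaphase-promoting complex, to -0.29 for RPS6KA1, a kinase activated by MAP kinases, and the list median was -0.023 with 4 above 0 and 5 below. A dimmer probe of CDK1, the kinase of the cell cycle, stood higher at 0.29, and its brightest probe at 0.11. FBXO43, the related inhibitor that keeps the vertebrate egg in metaphase, was above the limit in no channel. Most genes of this list also serve dividing somatic cells.

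Genes that store or clear maternal mRNA did not pass either. Of 15 with a probe, 9 were tested, with 6 ratios above 0, 3 below and a median of 0.0046. An unadjusted limma p under 0.05 was reached by 1 of the 9, against 450 of all 5323 tested genes. The 1 gene was CNOT7, a deadenylase of the CCR4-NOT complex, at -0.46 (95% interval -0.78 to -0.13, adjusted p = 0.63). The other 2 tested probes of CNOT7 stood at -0.12 and -0.081. DDX6, an RNA helicase of storage granules, was the highest at 0.16 (-0.17 to 0.48). CPEB1, which controls translation of MOS mRNA in the oocyte, was above the limit in 2 coculture channels and no control channel, by 1 of its 3 probes; it was tested only through coculture, and no ratio is given. DCP1A, a decapping factor, was in turn tested only through control, with no coculture channel above the limit. BTG4, an adaptor for clearance of maternal mRNA, was above the limit in 2 channels and was not tested.

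Markers of cells that could accompany the oocyte or embryo were examined beside the members. Of 18 granulosa, cumulus and luteal genes with a probe, 1, FST, was above the limit in all 8 channels and 7 were in none. Those above it in none were FSHR, INHBA, GREM1, PTX3, SERPINE2, NR5A2 and EREG. Of all genes with a probe, 24.2% were above the limit in all 8 channels and 43.2% in none, against 5.56% and 38.9% here. AMH, a granulosa hormone, was above it in 4 coculture and 2 control channels, PTGS2, the prostaglandin synthase, in 3 and 3, STAR, the steroidogenic cholesterol carrier, in 2 and 3, and LHCGR, the luteinising hormone receptor, in 2 and 2. FST, which encodes follistatin and is not restricted to these cells, was the lowest of the 7 tested at -0.40 (95% interval -0.85 to 0.039), and HAS2, hyaluronan synthase, the highest by the brightest probe at 0.23 (-0.22 to 0.69). HAS2 was tested only through coculture, with 3 coculture and 1 control channels above the limit. HSD17B1 was tested only through control, with 1 coculture and 2 control channels above it. AMH stood at 0.21 (-0.11 to 0.54), above 0 on all 4 arrays, where 13.2% of the tested probes had 1 sign on all 4. Its dimmer probe stood at 0.26 (-0.085 to 0.60). That probe was above the limit in 3 channels, so it was tested through 1 condition only. The list median was -0.015, and 0.035 over all 8 tested probes, with 0 passing and 0 at an unadjusted p under 0.05 (limma) either way. The part of such cells in the member values was not tested. Of 9 sperm and testis genes with a probe, 5 were above the limit in no channel, namely TNP1, AKAP4, IZUMO1, ODF1 and ZPBP. This was 55.6% of the list, against 43.2% of all genes with a probe. ODF2 was above the limit in all 8 channels, SPACA1 in 7, SPATA18 in 3 and TSSK6 in 2. Of the 3 tested 0 passed, and SPACA1 stood at 0.15 (-0.19 to 0.49) and SPATA18 at -0.60 (-0.97 to -0.24, limma unadjusted p = 0.0047, adjusted p = 0.63). SPATA18 was tested only through control, with 1 coculture and 2 control channels above the limit, and its 2 other probes were above it in none. Its ratio is thus not free of the filter. On replicates 1 to 4 it was -0.035, 0.23, -1.06 and -1.55, so the low value came from 1 dye assignment. In the blastocyst lineage list 10 genes were tested by their brightest probe and 0 passed. An unadjusted limma p under 0.05 was reached by 2, GATA2 and POU5F1, both with the lower level in coculture. Of all 5323 tested genes, 450 reached it. The median over the 10 genes was -0.17, against -0.0062 over all tested genes, with a range from -0.48 for GATA2 to 0.34 for GATA6. Over all 19 tested probes of these genes 0 passed and 3 had an unadjusted p under 0.05, against 7.84% of all tested probes. The third was a probe of TEAD4 at -0.44, whose other probes stood at -0.45, -0.39 and 0.010. The other probe of POU5F1 stood at -0.22.

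Among 5300 other tested genes, each by its brightest probe, those whose 4 array ratios lay nearest to each tested member were found by the root mean square difference over the 4 arrays, on the log2 scale. Nearest to MOS were EIF3H, a subunit of a translation initiation factor, at 0.054, and CKMT2, a mitochondrial creatine kinase, at 0.087. Nearest to GDF9 were NEU1, a lysosomal sialidase, at 0.07 and XPA, a DNA repair factor, at 0.08. The brighter ZAR1L probe was nearest to SUPT7L, a subunit of a histone acetyltransferase complex, at 0.0998 and to WDTC1, at 0.12. With so many genes and 4 arrays, such matches describe these arrays only.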

How the data were processed

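Two-colour arrays of amplified RNA, labelled chemically with Cy3 and Cy5 per the labels' protocols, gave 4 scanner tables. These hold the median and mean pixel intensity of each spot and its local background as deposited by the authors, on a linear scale. A deposited table gives log2 ratios, made by the authors with limma per the submitters' processing notes; set against the scanner values (r = 0.94 to 0.96 with background-subtracted, loess-normalized ratios), it held Cy5 over Cy3 on every array. Its column medians were -0.0133, -0.013, -0.000395 and -0.0167, and its exact centring stays unknown.

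Median intensities were corrected by normexp (offset 50) over all spots and loess-normalized within arrays, control spots weighted 0 (limma 3.58.1, R 4.3.3). The 74 to 150 spots an array that its table marks as ignored were dropped. Probes above the limit in the channel of 1 condition on at least 2 arrays, with values on at least 3, were tested (15631). The fit had a dye intercept and a coculture term, 2 residual and 6.04 prior degrees of freedom, with Benjamini-Hochberg adjustment over all probes tested and a threshold of 0.05. The number of arrays limits the precision, with a median 95% interval of 0.363 either side of a log2 ratio. The fit was tested on simulated data. Of 43794 probes, 18121 had 1 symbol and none had several; 17772 were current in RefSeq for assembly Sscrofa11.1, 104 were updated by accession and 241 by synonym.

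All member probes were named. Of each gene list the highest and lowest tested ratio, any gene passing and a listed set of partners were named, with 2 nearest genes per tested member; other genes named (among them UCHL1, CDK1, TEAD4, AMH, KIT, DCP1A, SMAD3 and those listed by detection alone) were chosen after their values were seen. Members and lists were chosen with earlier results of these data known. Alternatives covered background, pixel summary, normalization, design, filter, detection limit, the authors' table and leaving out each replicate.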

Additional observations from a re-analysis of the deposited data

Results flagged for a closer look

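For 4 of the 5 probes, both arrays of 1 dye assignment moved one way and both arrays of the other assignment the opposite way. The difference between the mean log2 ratios, coculture over control, with coculture in Cy5 minus that with coculture in Cy3, was 0.645 for GDF9, 0.453 for BMP15, -1.28 for the brighter ZAR1L probe and 0.557 for the dimmer ZAR1L probe. The same split of signs occurred in 23.2% of the 43489 probes with a value on all arrays and in 20.3% of the 15552 tested ones. The dye term of the fit tests this difference for the tested probes. It gave a limma unadjusted p of 0.08 and an adjusted p of 0.47 for GDF9, and 0.0052 and 0.32 for the brighter ZAR1L probe. For BMP15 and the dimmer ZAR1L probe the difference was not tested. The dye assignment and the pools of those arrays cannot be told apart. No sample stood apart from the other 3 of its condition by Dixon's gap in intensity, nor any array in ratio.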

How the results depend on the processing

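Of 14 alternatives, 5 leave the MOS ratio as it is. Among these, quantile normalization of the average intensities between arrays left the tests unchanged too and is no separate check. The others of the 5 change only the tests. Leaving out 1 of 4 arrays that all lie below 0 cannot turn the sign of the MOS ratio. The 5 that recompute it gave -0.443 to -0.153, leaving out each replicate -0.508 to -0.259, and the lowest limma adjusted p was 0.338. For the brighter ZAR1L probe the 4 that recompute it gave 0.131 to 0.254, and leaving out each replicate 0.121 to 0.475; with mean pixel intensities, or when both channels of 2 arrays had to exceed the limit, it was not tested. GDF9 turned to -0.0265 with median centring, and leaving out each replicate gave -0.0732 to 0.191, below 0 without replicates 2 and 4; the cause was not tested. The untested ratios ran from -0.151 to 0.124 for BMP15 and from -0.126 to 0.135 for the dimmer ZAR1L probe. The count at a limma adjusted p under 0.05 was 0 in every setting run. At an unadjusted p under 0.05 it was 1226, or 813 without the dye term, 2643 with no filter on dim probes, 1895 in the separate-channel fit and 609 to 1503 without each replicate, lowest without replicate 2. Other detection limits gave 12 to 18 of 40 member values, with BMP15 and the dimmer ZAR1L probe at 0 and the brighter ZAR1L probe at 1 with a mean plus 3 SD or a median plus 2 scaled MAD. Signals lay close to the negative-control spots, which limits each statement on detection and each ratio.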
